A study of Homo sapiens with 4 samples.

Results

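Small nucleolar RNA (snoRNA) host genes were examined in H3K27ac ChIP-seq peak lists of the MYCN-amplified neuroblastoma cell line SK-N-BE(2)C. Genes named *SNHG* with a number, together with *GAS5*, *ZFAS1* and *EPB41L4A-AS1*, were taken from GENCODE release 44 on chromosomes 1 to 22, which gave 31 of 59578 genes. The assay covered 2 groups of 2 samples each. The control cells (sgCtrl) carried Cas9 with a non-targeting guide RNA, and the *SNHG1*-depletion cells (sgSNHG1) carried Cas9 with a pair of guide RNAs directed around *SNHG1*. Both groups were stable clones grown after puromycin selection of 3 to 7 days and 1 to 2 weeks of outgrowth, so a property of a clone and an effect of the depletion cannot be told apart. The authors combined both samples of a group before calling peaks, so there is 1 list per group, with no spread between replicates and no test. There were 63699 peaks in the sgCtrl list against 50119 in the sgSNHG1 list (ratio 0.787).

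A snoRNA host gene is transcribed and spliced as a longer RNA, and the snoRNAs are trimmed from its introns. Box C/D snoRNAs guide 2′-O-methylation and box H/ACA snoRNAs guide pseudouridylation of ribosomal and spliceosomal RNA, while small Cajal body RNAs (scaRNAs) act on spliceosomal RNA. Many host genes are housekeeping genes whose transcripts begin with a C and a run of pyrimidines, as do the transcripts of ribosomal proteins. H3K27ac is an acetylation of histone H3 found at active promoters and enhancers, and at promoters it flanks the nucleosome-depleted start site.

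RefSeq promoter sequences (GRCh38.p14) were matched for 27 of the 31 host genes, and the other 4 were *SNHG6*, *SNHG9*, *SNHG15* and *SNHG25*. A C followed by at least 4 C or T on the transcribed strand began within 10 bases of the start in 16 of the 27 (59.3%), beside 33.5% of 33725 promoters of the same length. The run began on the start base itself in 7 host genes (25.9%), beside 4.03% of all promoters, 4.57% of protein-coding and 3.36% of other lncRNA promoters. These 7 starts are shown with that of *SNHG1*, in which the C is followed by only 2 further pyrimidines. Each line gives 20 bases before the start and 30 from it, 5′ to 3′ on the strand of the gene, with the pyrimidines that begin on the start base in capitals.
SNHG1 (chr11:62855856-62855905, minus): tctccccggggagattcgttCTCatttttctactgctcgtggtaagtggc
SNHG4 (chr5:139274081-139274130, plus): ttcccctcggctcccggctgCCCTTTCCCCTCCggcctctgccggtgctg
SNHG5 (chr6:85678704-85678753, minus): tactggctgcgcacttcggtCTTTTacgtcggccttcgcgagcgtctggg
SNHG12 (chr1:28581844-28581893, minus): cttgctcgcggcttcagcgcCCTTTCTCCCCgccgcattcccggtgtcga
SNHG18 (chr5:9546180-9546229, plus): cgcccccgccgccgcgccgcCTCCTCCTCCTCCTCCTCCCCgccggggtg
SNHG19 (chr16:2155329-2155378, minus): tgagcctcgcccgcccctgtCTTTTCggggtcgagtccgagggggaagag
SNHG32 (chr6:31834896-31834945, plus): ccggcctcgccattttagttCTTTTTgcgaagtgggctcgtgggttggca
ZFAS1 (chr20:49278622-49278671, plus): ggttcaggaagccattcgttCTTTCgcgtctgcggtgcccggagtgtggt

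The E-box CACGTG, a motif that MYC-family factors bind and that reads the same on both strands, was present in the promoter window of 2 host genes, *SNHG7* and *SNHG30* (7.41%), beside 7.18% of all promoters. The host promoters had a median GC content of 62.0% and an observed to expected CpG ratio of 0.795, beside 58.7% and 0.581 over all promoters and 62.7% and 0.747 over protein-coding ones. These are descriptions of letters and not of bound sites.

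*SNHG1* (ENSG00000255717.9), the targeted gene, lies on the minus strand of chromosome 11 from 62851978 to 62855953 (GRCh38) and hosts 8 box C/D snoRNAs in RefSeq, SNORD22 and SNORD25 to SNORD31. Its RefSeq promoter is printed because the peaks described next lie on either side of it, from 250 bases before the start to 50 from it, with the transcribed bases in capitals.
SNHG1 promoter (chr11:62855836-62856135, minus): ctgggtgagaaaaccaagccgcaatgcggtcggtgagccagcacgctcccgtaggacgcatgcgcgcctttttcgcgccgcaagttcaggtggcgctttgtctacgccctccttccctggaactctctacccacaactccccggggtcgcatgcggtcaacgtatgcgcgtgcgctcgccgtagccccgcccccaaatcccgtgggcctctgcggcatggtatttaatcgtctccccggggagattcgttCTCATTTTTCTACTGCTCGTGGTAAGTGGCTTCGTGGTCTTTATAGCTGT

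In sgCtrl, *SNHG1* had 1 peak within the gene, from 331 to 819 bp downstream of its GENCODE start, whose fold enrichment was 3.44 (−log10 p 19.9). Fold enrichment divides the signal at the peak's summit by the background that the peak caller estimated around it. The summit held 76 fragments, as recovered from the fold enrichment and p-value. The sgSNHG1 list had no peak there, and none anywhere within the gene. Of the 34 sgCtrl peaks within 1 kb of a host-gene start, this sgCtrl peak was the only 1 that overlapped no sgSNHG1 peak (33 did). The share of such peaks over all genes is not given here. The stretch around the summit of this peak is printed for that reason, with the snoRNA SNORD26 that the peak covered in capitals. The peak also covered 59 of the 69 bases of SNORD25.
SNHG1 sgCtrl peak (chr11:62855213-62855512, minus): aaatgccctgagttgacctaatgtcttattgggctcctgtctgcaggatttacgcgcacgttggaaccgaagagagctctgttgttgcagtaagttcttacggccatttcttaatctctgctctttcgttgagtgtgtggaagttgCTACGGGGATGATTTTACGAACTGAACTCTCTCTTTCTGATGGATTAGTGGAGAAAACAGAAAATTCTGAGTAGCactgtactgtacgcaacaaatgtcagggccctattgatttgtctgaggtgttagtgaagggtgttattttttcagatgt

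Upstream of *SNHG1*, where *SLC3A2* (the heavy chain of an amino acid transporter) begins 51 bp away on the opposite strand, both lists had 2 peaks. The nearer one lay from -573 to -268 bp in sgCtrl with a fold enrichment of 3.98 (92 fragments), and from -529 to -256 bp in sgSNHG1 with 3.63 (63 fragments). The farther one lay from -1522 to -916 bp in sgCtrl with 4.06 (99 fragments), and from -1414 to -979 bp in sgSNHG1 with 3.34 (56 fragments). Both upstream peaks thus had lower values in sgSNHG1, but they were still called. ChIP-seq peaks carry no strand, so acetylation of *SNHG1* and of *SLC3A2* cannot be told apart there. Past the 3′ end, from 4237 to 4816 bp, the sgSNHG1 list had a peak of 3.17 (51 fragments) where sgCtrl had none. Within 1 kb of the start, 880 bases lay under a peak in sgCtrl and 296 in sgSNHG1, a ratio of 0.336. Of the 2 guide sequences in the paper, 1 has its reverse complement in the promoter printed above. The other begins with the bases that end the sgCtrl peak stretch printed above, but its full length was not searched for. Whether the DNA was altered at either place was not tested. Fewer acetylated histones and fewer copies of the targeted DNA cannot be told apart in a list of peaks.

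**Figure D1:**
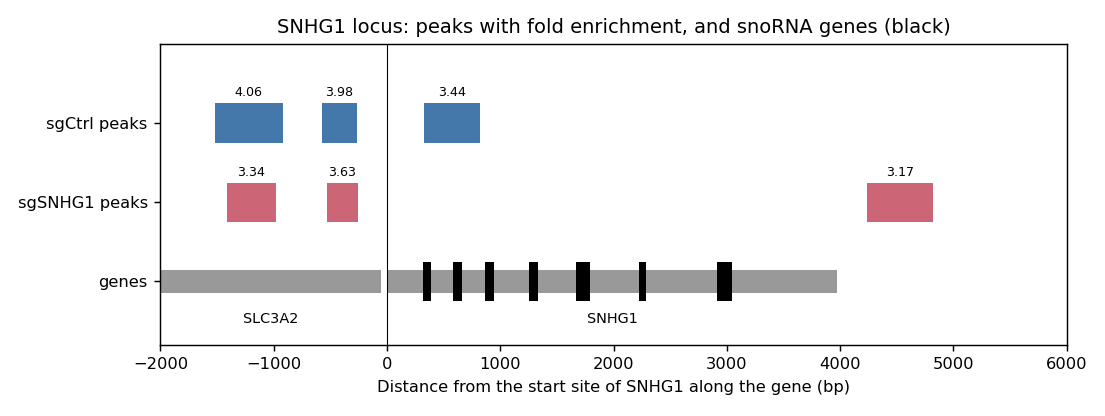
Peaks of both lists by distance in bp from the start of *SNHG1* along the gene, with fold enrichment above each peak, gene bodies in grey and GENCODE snoRNA genes in black. The peak of 3.44 over the first snoRNAs was in the sgCtrl list only, and the upstream peaks were in both lists.

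The start-site peaks of the host genes were common and were present in both lists. In sgCtrl, a peak lay within 1 kb of the start of 25 of the 31 host genes (80.6%, 95% Wilson interval 63.7 to 90.8). In sgSNHG1 the number was 26 (83.9%, 67.4 to 92.9). These intervals treat genes as independent draws and hold no spread between samples. The shares over all genes were 31.2% and 29.5%. They were 59.6% and 59.1% of 19111 protein-coding genes, 26.3% and 24.4% of 18359 other lncRNA genes, and 86.8% and 86.2% of 167 protein-coding genes with a snoRNA gene in the body. The host lncRNAs were therefore nearer in this count to protein-coding snoRNA hosts than to other lncRNAs. All 25 host genes with an sgCtrl peak in this window also had an sgSNHG1 peak in it (0 without), beside 12.8% of all genes with an sgCtrl peak that had none in sgSNHG1. That share was 7.13% for protein-coding genes and 1.38% (2 of 145) for protein-coding snoRNA hosts, so retention was not particular to the host lncRNAs. In sgSNHG1, *SNHG1* is among the 25 only through its upstream peaks.

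*SNHG21*, host of SCARNA15, was the 1 host gene with a start-site peak in sgSNHG1 only, beside 3.34% of all genes without an sgCtrl peak. Its peak lay from 128 to 546 bp downstream, with a fold enrichment of 4.95 and 39 fragments. A further peak in sgSNHG1 only lay across the start of *SNHG15*, from -561 to 117 bp, with 2.91 and 66 fragments, beside a downstream peak that was in both lists. The other 5 host genes, *SNHG12*, *SNHG14*, *SNHG19*, *SNHG20* and *SNHG27*, had no peak within 1 kb in either list.

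For 3 of these 5 the choice of start decided the count, since 28 host genes in sgCtrl and 29 in sgSNHG1 had a peak within 1 kb of the start of any annotated transcript. The RefSeq start of *SNHG12* lies 1259 bp inside the GENCODE gene, and a peak followed it from 1313 to 2140 bp in sgCtrl with a fold enrichment of 7.95, and from 1308 to 2144 bp in sgSNHG1 with 8.13. That of *SNHG20* lies 1927 bp inside, and a peak followed from 2106 to 2629 bp with 3.73 in sgCtrl and from 2093 to 2705 bp with 4.55 in sgSNHG1. The RefSeq start of *SNHG27* lies 37251 bp inside, where sgCtrl had a peak of 4.24 (24 fragments) from 37010 to 37535 bp and sgSNHG1 had none. *SNHG14*, the long transcript of the imprinted Prader-Willi region with 83 of the 147 RefSeq snoRNAs, had 0 peaks over its GENCODE record of 441754 bp in both lists, but its RefSeq start lies upstream of that record, at -154975 bp from its first base, and was not searched. *SNHG19*, host of SNORD60, likewise had none.

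When only summits from the start to 1 kb downstream were counted, 20 host genes had one in sgCtrl and 21 in sgSNHG1. *SNHG1* was the only 1 of the 20 without such a summit in sgSNHG1, beside 15.2% of all genes. It remained the only one when only peaks with a −log10 p of 10 or more were kept and with lists of equal size. Both settings only remove peaks, so neither could restore the absent summit of *SNHG1*. Upstream summits were present at 10 host genes in sgCtrl and at 11 in sgSNHG1, and 0 of the 10 were absent from sgSNHG1, beside 21.5% of all genes and 2.33% (1 of 43) of protein-coding snoRNA hosts. Thus the downstream peak of *SNHG1* was the exception among host genes, although 3 of 130 protein-coding snoRNA hosts and 2000 of 13161 genes in all also had none in sgSNHG1.

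**Figure D2:**
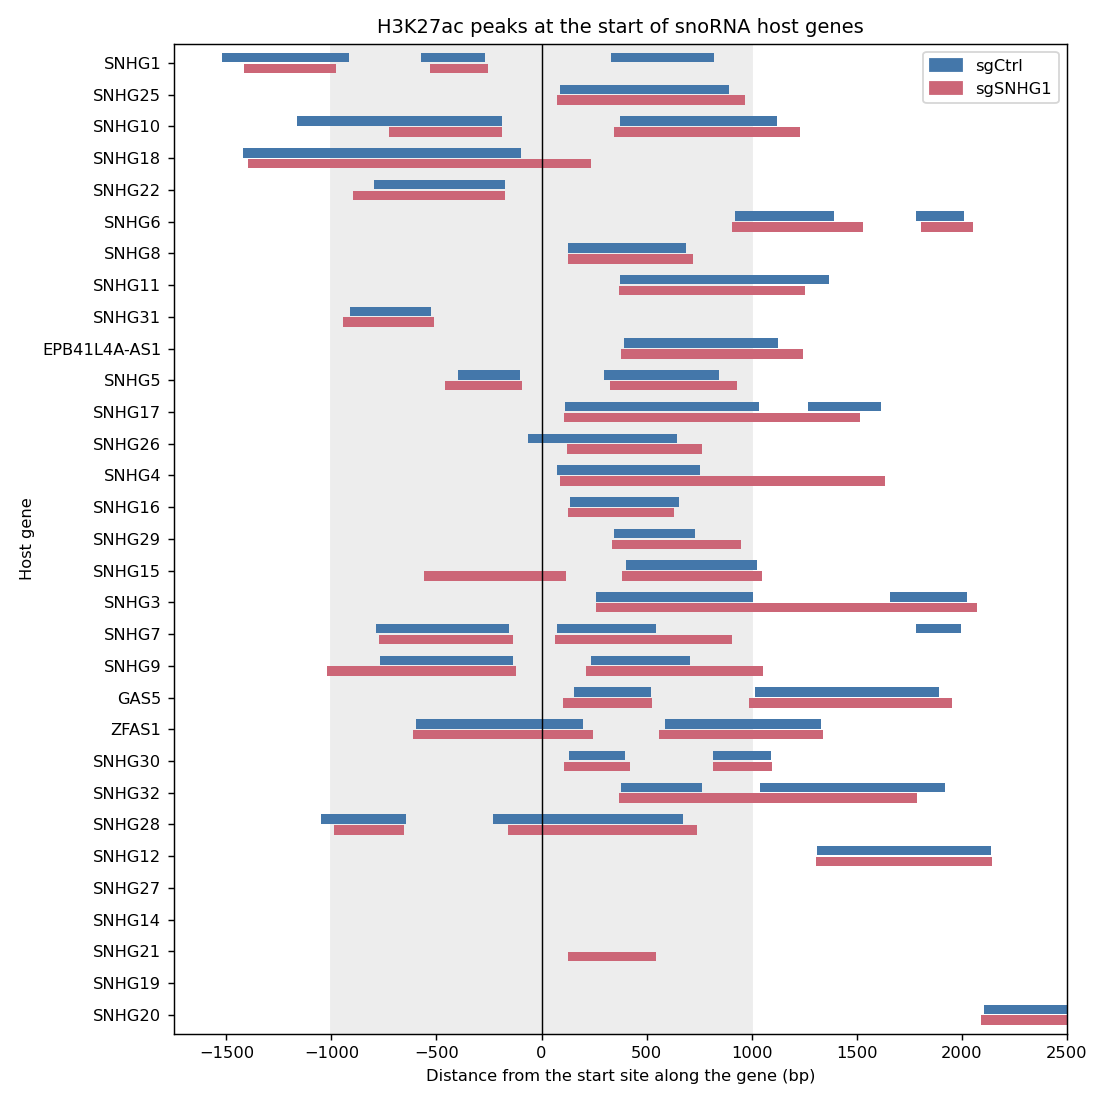
H3K27ac peaks that touch the 1 kb window (grey) or the body of each of the 31 host genes, by distance in bp from the GENCODE start along the gene, with *SNHG1* first and the others by sgCtrl fold enrichment. Blue bars are sgCtrl peaks and red bars sgSNHG1 peaks; at most genes the bars lie over the same bases, and at *SNHG1* the downstream bar is blue only.

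Most host-gene peaks lay downstream of the start rather than on it. The start base itself was under a peak in 3 of 31 host genes in sgCtrl (9.68%) and in 4 in sgSNHG1 (12.9%). The shares were 7.54% and 7.66% of all genes and 12.5% and 13.8% of protein-coding genes, so this was not particular to the host genes. The share of host genes under a peak was highest 450 and 500 bp downstream in sgCtrl, at 19 genes (61.3%), and 400 bp downstream in sgSNHG1, at 20 genes (64.5%). Over protein-coding genes it was highest 300 bp downstream in both lists, at 42.5% and 44.3%. At 450 to 650 bp downstream the same number of host genes was covered in both lists. The largest gap, chosen after the values were seen, was at 900 bp, with 8 host genes in sgCtrl (25.8%) and 15 in sgSNHG1 (48.4%), beside 17.4% and 17.9% of protein-coding genes.

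**Figure D3:**
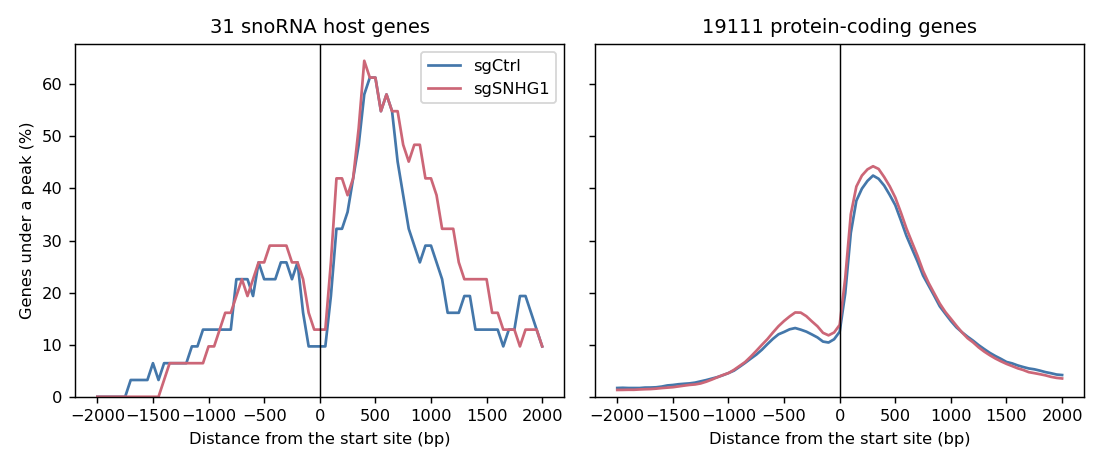
Share of genes under a peak, in %, by distance in bp from the start, for the 31 host genes (left) and 19111 protein-coding genes (right), with sgCtrl in blue and sgSNHG1 in red. Both panels dip at the start and are highest downstream of it. The lists meet at 450 to 650 bp in the host genes and are farthest apart at 900 bp, at 25.8% in sgCtrl and 48.4% in sgSNHG1, where protein-coding genes stand at 17.4% and 17.9%.

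The peaks at most host-gene starts covered more bases in sgSNHG1. Among the 25 host genes with a peak in both lists, 19 had more bases covered within 1 kb in sgSNHG1 and 5 had fewer. The 19 make 76.0%, beside 62.8% of all genes, 66.6% of protein-coding genes and 83.9% of protein-coding snoRNA hosts, so the share is not particular to the lncRNA hosts. At some genes the sgSNHG1 peak ran on past 1 kb. *SNHG3*, which had 741 bases covered within 1 kb in both lists and is the host of the U17 snoRNAs SNORA73A and SNORA73B, had an sgCtrl peak of 748 bp and another of 365 bp, where sgSNHG1 had a single peak of 1816 bp. *SNHG17* had sgCtrl peaks of 925 and 351 bp and an sgSNHG1 peak of 1408 bp. *SNHG32* had sgCtrl peaks of 384 and 878 bp and an sgSNHG1 peak of 1416 bp. *SNHG4* had 1 peak in each list, of 680 bp and 1550 bp. The first summit hardly differed in place, at 669 and 665 bp in *SNHG3* and at 316 and 314 bp in *SNHG4*.

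The height of the start-site peaks differed little between the lists. The highest peak within 1 kb had a median fold enrichment of 6.38 in sgCtrl (range 3.41 to 11.9, 25 genes) and 6.02 in sgSNHG1 (3.63 to 12.2, 26 genes), beside medians at start sites of 5.75 and 6.26 over all genes, 6.28 and 6.74 over protein-coding genes, and 7.83 and 8.06 over protein-coding snoRNA hosts. The host lncRNAs thus stood above the median of all genes in sgCtrl and below it in sgSNHG1, where 1 more host gene was counted. The median log2 ratio of sgSNHG1 to sgCtrl was 0.10 (quartiles -0.10 and 0.22), beside 0.04 over all genes, 0.05 over protein-coding genes, 0.02 over other lncRNA genes and 0.06 over protein-coding snoRNA hosts. Of the 25 host genes, 17 had the higher value in sgSNHG1 and 8 the lower. The 17 make 68.0%, beside 56.2% of all genes, 59.3% of protein-coding genes and 61.5% of protein-coding snoRNA hosts. None reached 1.5 times higher (0, beside 2.36% of all genes) or 1.5 times lower (0, beside 1.40%). The log2 ratios ran from -0.46 to 0.44, and the 95% counting interval from the recovered fragments included 0 for 23 of the 25.

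In 6 of the 25, the highest peak was not the same peak in both lists, and their ratios compare different places. These were *SNHG1*, *SNHG5*, *SNHG10*, *SNHG28*, *SNHG30* and *GAS5*. Over the other 19 the median log2 ratio was also 0.10, with 13 higher and 6 lower.

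**Figure D4:**
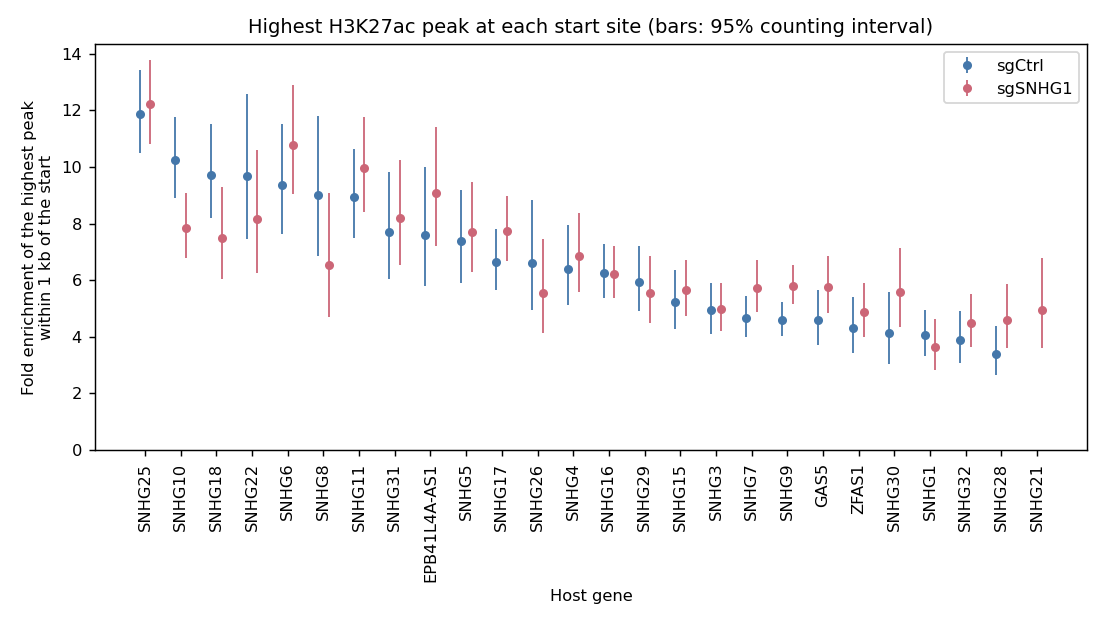
Fold enrichment of the highest peak within 1 kb of the start at each host gene with such a peak, sgCtrl in blue and sgSNHG1 in red, with 95% intervals from the recovered fragment number at the summit (counting error only, 1 pooled list per group). *SNHG25* was highest in both lists, at 11.9 and 12.2, and *SNHG1* was the lowest of 26 in sgSNHG1, at 3.63.

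Among the host genes, *SNHG1* had a weak peak in both lists. By its highest peak, of 4.06 in sgCtrl and 3.63 in sgSNHG1, it ranked 23 of 25 and 26 of 26. Its log2 ratio of -0.16 (95% counting interval -0.62 to 0.29) was the 6th lowest, so 5 other host genes had a lower one. By recovered fragments, again at different peaks, its log2 ratio was -0.65, and 1 host gene had a lower one.

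The host genes were then grouped by their RefSeq snoRNAs. All 10 hosts of box H/ACA snoRNAs alone had a start-site peak in both lists, and 9 had the higher value in sgSNHG1, beside 56.2% of all genes (median log2 ratio 0.14, beside 0.04). *SNHG9*, host of SNORA78, begins 54 bp from the ribosomal protein gene *RPS2* on the opposite strand. Its highest peak, upstream from -769 to -137 bp in sgCtrl, had a fold enrichment of 4.58 (225 fragments) and in sgSNHG1 of 5.80 (285 fragments). Its log2 ratio of 0.34 (0.09 to 0.59) was the only one whose counting interval lay above 0. The downstream peak of *SNHG9* had the same direction, with 4.44 and 5.29. *SNHG7* had 4.67 (159 fragments) in sgCtrl and 5.73 (153 fragments) in sgSNHG1, so its fold enrichment was higher while the fragments were not. *EPB41L4A-AS1*, host of SNORA13, had 7.61 and 9.08. *SNHG17* and *SNHG11*, hosts of SNORA71 snoRNAs and neighbours on chromosome 20, had 6.63 and 7.73, and 8.92 and 9.95. *SNHG4* had 6.38 and 6.84, *SNHG3* 4.93 and 4.99, *SNHG15* 5.22 and 5.64, and *SNHG31* 7.71 and 8.18, sgCtrl first in each pair. The peak of *SNHG31* lay upstream only, towards *BARD1*.

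*SNHG8*, host of SNORA24, was the 1 box H/ACA host with the lower value in sgSNHG1. It had 8.99 (52 fragments) in sgCtrl and 6.54 (36 fragments) in sgSNHG1, the lowest log2 ratio of the family at -0.46 (-1.07 to 0.15). It lies on chromosome 4, where the lists held 2200 and 1274 peaks. Within 1 Mb on either side of the gene, leaving out the gene itself and 1 kb around it, there were 30 sgCtrl and 7 sgSNHG1 peaks, a ratio of 0.233. Around *SNHG1*, counted in the same way, there were 119 and 92, a ratio of 0.773. *SNHG27*, the other host-named gene of chromosome 4, had 4 peaks over its body in sgCtrl and 3 in sgSNHG1, the highest at 17.6 and 12.9. The part of the chromosome in the lower values at these genes was not tested. Without the chromosome 4 genes the median log2 ratio of the host genes was 0.11.

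Box C/D hosts were more evenly divided. Of the 12 that hold only SNORD genes, 10 had a start-site peak in both lists, and 5 had the higher and 5 the lower value in sgSNHG1 (median log2 ratio 0.03). *SNHG18*, host of SNORD123, had 9.70 (133 fragments) in sgCtrl and 7.48 (83 fragments) in sgSNHG1, a log2 ratio of -0.38 (-0.77 to 0.02). Its summit lay upstream in both lists, beyond the divergent start of the semaphorin gene *SEMA5A* 95 bp away. *SNHG26* had 6.62 and 5.54, and *SNHG29*, host of the SNORD49 pair and SNORD65, had 5.95 and 5.55. *SNHG16*, host of SNORD1A to SNORD1C, had 6.24 and 6.23 and the log2 ratio nearest to 0. *SNHG6*, host of SNORD87, had 9.38 and 10.8, from a peak that begins near the edge of the 1 kb window. *ZFAS1*, host of the SNORD12 group and transcribed antisense to *ZNFX1*, had 4.30 and 4.86 at a peak with its summit upstream. Its downstream peak had 4.15 and 4.09. *SNHG32*, host of SNORD48 and SNORD52 in the major histocompatibility complex, had 3.90 and 4.48.

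*SNHG5*, host of the SNORD50 pair, showed opposite directions on either side of its start. The downstream peak had 7.37 in sgCtrl and 5.91 in sgSNHG1, and the upstream peak 6.91 and 7.72. *SNHG30*, host of SNORD7, had the highest log2 ratio of the family at 0.44 (-0.13 to 1.00), but from different peaks. Its near peak had 3.68 (37 fragments) and 5.58 (63 fragments), and its far peak 4.12 (41 fragments) and 4.25 (48 fragments).

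*GAS5*, *SNHG12* and *SNHG25* hold snoRNAs of both boxes. *GAS5*, a growth arrest transcript with 11 RefSeq snoRNAs, the most after *SNHG14*, had a peak near the start of 4.58 (85 fragments) in sgCtrl and 4.70 (98 fragments) in sgSNHG1. A second, higher peak began 1016 bp downstream in sgCtrl, just outside the window, with 7.37 (141 fragments), and 990 bp downstream in sgSNHG1, just inside, with 5.75 (127 fragments). The log2 ratio of 0.33 for *GAS5* thus came from the edge of the window, and with 2 kb it was -0.36. *SNHG25* (chromosome 17, 64145937 to 64146476) is the shortest host gene at 540 bp and lay almost wholly under its peak, which covered both SNORD104 and SNORA50C. Its peak was the highest of the family in both lists, at 11.9 (253 fragments) and 12.2 (261 fragments).

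Of the 4 hosts of scaRNAs, 2 had a start-site peak in both lists. *SNHG10*, host of SCARNA13, had an upstream peak of 10.2 (197 fragments) in sgCtrl and 7.22 (162 fragments) in sgSNHG1. Its downstream peak had the opposite order, with 5.93 (116 fragments) and 7.85 (177 fragments). The log2 ratio between its highest peaks, -0.38 (-0.68 to -0.09), was the only one whose counting interval lay below 0, and it compares the upstream with the downstream peak. *SNHG22*, host of SCARNA17, begins 12 bp from *ACAA2* (a mitochondrial thiolase) on the opposite strand, and its only peak, upstream, had 9.67 and 8.15. *SNHG28*, for which no snoRNA was listed, had 3.41 and 4.59, the lowest value of the family in sgCtrl.

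Over the gene bodies, the host genes had 49 peaks in sgCtrl and 36 in sgSNHG1, a ratio of 0.735 beside 0.787 for the whole lists. The covered bases were 27416 and 23604, a ratio of 0.861. The difference lay beyond the first 1 kb, where 25 sgCtrl and 9 sgSNHG1 peaks were found, a ratio of 0.360 beside 0.721 for protein-coding genes, 0.788 for other lncRNA genes and 0.816 for protein-coding snoRNA hosts. When peaks that begin within the first 1 kb and reach beyond it were counted too, the ratio of the host genes was 0.618. Of the 25, 12 (48.0%) overlapped an sgSNHG1 peak, beside 55.1% for protein-coding genes, while all 9 sgSNHG1 peaks overlapped an sgCtrl peak, beside 78.3% for protein-coding genes and 74.7% for protein-coding snoRNA hosts. Among the far sgCtrl peaks are those of *SNHG3*, *SNHG17* and *SNHG32*, where the single sgSNHG1 peak reached over the far place but began within 1 kb. At *GAS5* the sgCtrl peak from 1016 bp was counted as far, while the overlapping sgSNHG1 peak from 990 bp was not.

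*SNHG16* alone had 8 body peaks in sgCtrl and 3 in sgSNHG1. Its GENCODE record runs over 113259 bp and contains other genes, and 5 of its sgCtrl peaks, with fold enrichments from 2.45 to 4.10, had no sgSNHG1 counterpart. *SNHG29* had 4 and 1, and *SNHG7* 4 and 2. Without *SNHG16* the ratio of body peaks was 0.805.

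Most of the snoRNA genes themselves were not under a peak. Of 147 RefSeq snoRNAs within the host genes, 83 lie in *SNHG14*, which had no peak over its GENCODE record in either list. Of the other 64, 14 were touched by a peak in sgCtrl and 14 in sgSNHG1, but not the same ones. No share for other snoRNAs is given here. *SNHG1* had 2 in sgCtrl and 0 in sgSNHG1, and *SNHG7* 1 and 0. *SNHG3* and *SNHG29* had 0 and 1, and *GAS5* 1 and 2. At *SNHG3* and *SNHG29* these were SNORA73A and SNORD49B, 1386 and 738 bp from the start, which only the wider sgSNHG1 peak reached.

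The protein genes of the snoRNA particle were set beside their RNA hosts. The 7 core genes examined, all on chromosomes 1 to 22, had a start-site peak in both lists. Their median log2 ratio was 0.19, and 6 of 7 had the higher value in sgSNHG1, beside 56.2% of all genes. The box H/ACA pseudouridine synthase gene *DKC1*, on chromosome X, was not examined. *NOP58*, which encodes a box C/D scaffold protein and itself hosts snoRNAs, had 5.18 and 7.74, a log2 ratio of 0.58. The methyltransferase gene *FBL* had 4.29 and 5.71. Its partners *NOP56* and *SNU13* had 8.01 and 8.23, and 3.96 and 4.52. Of the box H/ACA genes, *NOP10* had 4.34 and 5.87 and *NHP2* 6.43 and 7.05. *GAR1*, which lies on chromosome 4 like *SNHG8*, had 6.64 and 5.12.

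Markers of the cell type were looked up within 1 kb of the gene's first base. Starts of their other transcripts were not searched. Of 8 adrenergic neuroblastoma genes, 5 had a start-site peak in sgCtrl and 6 in sgSNHG1, among them *MYCN*, whose summit held 14812 fragments in sgCtrl and 11551 in sgSNHG1. *GATA3* and *PHOX2A* had none in either list. Of 6 markers of other cell types, 2 had a peak in sgCtrl (*EPCAM* and *COL1A1*) and 1 in sgSNHG1 (*EPCAM*), and *PTPRC*, *CD3E*, *ALB* and *CDH5* had none.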

How the data were processed

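H3K27ac ChIP-seq peak lists were analysed for 2 sgCtrl and 2 sgSNHG1 samples, grouped by their labels. According to the submitters' processing notes and the methods, the authors trimmed reads with cutadapt, aligned them to GRCh38 with BWA, combined both replicates and called peaks with MACS2 at a p-value of 1e-06. The deposited lists give each peak's fold enrichment, a ratio of summit to local background, a −log10 p and the summit position. The depth per sample is unknown.

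Peaks were assigned to GENCODE release 44 genes by overlap with 1 kb on either side of the gene's first base and with its body. The fragments at a summit were recovered from the deposited fold and −log10 p, assuming a pseudocount of 1 and a Poisson p, and were whole within 0.01 for 99.86% of sgCtrl and 99.87% of sgSNHG1 peaks. Low-valued peaks were not filtered. Intervals (95%) cover counting error of fragments, or of genes for the shares of genes, and no spread between samples. The scripts ran under Python 3.11.15 (scipy 1.17.1, pandas 2.3.3, numpy 2.4.6; figures, matplotlib 3.10.9) and were tested on simulated data. Named were all host genes, some of the genes starting within 1 kb of one on the opposite strand, snoRNP core genes and markers. The snoRNA counts follow RefSeq. The members and lists were chosen with earlier results of these data known.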

Additional observations from a re-analysis of the deposited data

How the results depend on the processing

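No paired analysis was possible because each list joins both samples of a group, and for the same reason no replicate could be left out. Of 76 alternative values, 60 stayed within the margin set for each (a count, 1.5 times), 16 moved and 0 reversed. Some of the 60 could not change. The highest start-site peaks all had a −log10 p of 14.57 or more, so the limit of 10 left their values as they were. Centring on all genes cannot alter a rank among the host genes. Within 2 kb of the start, 1 host gene lost its sgCtrl peak, *SNHG19*. That peak lay beyond 1 kb upstream, on the side of the divergent gene *TRAF7*. The median log2 ratio of the host genes was 0.20 by recovered fragments and 0.23 by −log10 p, both uncentred. The log2 ratio at *SNHG1* was -0.65 and -0.77 by these measures and -0.70 and -0.85 after centring on all genes, whose medians were 0.05 and 0.09. At a smaller limit (a log2 ratio of 0.32 in size), 4 host genes were higher and 3 lower in sgSNHG1, all of them short of 1.5. Without the first 1 kb the ratio of covered bases over the bodies was 0.64. At the start of *SNHG1* the ratio of covered bases was 0.608 within 0.5 kb and 0.506 within 2 kb. The cause of these differences was not tested. Added after seeing the data were the downstream summits, the removal of *SNHG16*, of *SNHG1* and of the chromosome 4 genes, and the RefSeq snoRNAs. With 1 pooled list per group, a peak absent from a list may lie just under its threshold, and the depth of the lists is unknown.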
